A study of Mus musculus with 6 samples.

Results

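The small leucine-rich proteoglycans (SLRPs) Dcn, Bgn, Aspn, Lum, Fmod, Omd, Prelp, Ogn and Podn, together with the large proteoglycan versican (Vcan), were followed in mouse embryonic fibroblasts (MEFs) with and without Rnf40. The members were chosen by gene symbol, and all 10 were found among the 29955 genes of the deposited table. RNF40 is a subunit of the E3 ubiquitin ligase that attaches a single ubiquitin to histone H2B, a mark of transcribed genes. RNA was sequenced from 3 cultures labelled Rnf40+/+ and 3 cultures labelled Rnf40-/-, all primary MEFs at passage 3, and the comparison asked which genes depend on Rnf40. The knockout cells came from embryos with loxP sites around exons 3 and 4 of Rnf40 and a tamoxifen-inducible Cre recombinase (CreERT2) expressed from the ubiquitous Rosa26 locus. To delete Rnf40 they were grown with 250 nM 4-hydroxytamoxifen (4-OHT) for 5 days and without it for a further 3 days. Whether the Rnf40+/+ cells carried the floxed alleles and Cre, and whether they received 4-OHT, is not stated for these libraries, so deletion and treatment cannot be told apart. The labels do not say whether the cultures of a genotype came from separate embryos, and the p-values below therefore measure only the spread between these cultures, which may be technical. As a check of the labels, Rnf40 kept 40.5% of its Rnf40+/+ level in the Rnf40-/- libraries, counting all of its exons and not the deleted ones alone.

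SLRPs are secreted proteins with a core of leucine-rich repeats that bind collagen fibrils and influence their diameter and spacing. Many carry chains of chondroitin, dermatan or keratan sulfate, and several also bind growth factors such as TGF-beta and cell-surface receptors. Versican is built differently: it binds hyaluronan at one end, carries many chondroitin sulfate chains, and fills the loose matrix around migrating and proliferating cells. Fibroblasts are a major source of both kinds of proteoglycan.

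Values are given as normalized counts, the reads of a gene divided by the size factor of its library, and the libraries held between 17053436 and 26344170 reads on genes. A count of 3 reads, taken as the limit of detection, equals 2.40 to 3.58 normalized counts depending on the library. Every one of the 10 members passed the filter on low values, and the member library with the fewest reads held 68 reads, for Omd. The test was limma, run on log2(normalized count + 1) over the 16378 genes that passed the filter, and a gene was called at a Benjamini-Hochberg adjusted p under 0.05. The added 1 slightly understates the change of genes with few reads.

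In Rnf40-/- MEFs Bgn, Aspn, Fmod, Vcan and Prelp fell, Omd and Ogn rose, and Dcn, Lum and Podn were not called. Changes of members ran from a fall to 29.5% of the Rnf40+/+ mean for Aspn to a 4.55-fold rise for Omd. Thus 5 of 10 members were lower and 2 were higher, while among all genes tested 24.1% were called lower, 23.3% higher and 47.4% in either direction. By the criteria of the study, which ask for a mean normalized count over 15, an unadjusted p under 0.05 and an absolute log2 fold change over 1, Bgn, Aspn and Fmod were lower and Omd was higher. These 3 lower members and 1 higher member stand beside a background of 5.7% lower and 4.25% higher among all genes tested. The median log2 fold change was -0.44 over the members and -0.0035 over all genes tested, and the medians of the absolute log2 fold changes were 0.65 and 0.33. The same 7 called members were those whose libraries did not overlap between genotypes, a separation that 56.5% of all genes tested showed (27.8% with Rnf40-/- higher and 28.7% with it lower). Only Omd was called higher without replicate 1 or without replicate 2 of Rnf40-/-, and 4 members were without replicate 3 of Rnf40+/+, as described below. In bulk RNA, fewer cells of a type and less RNA per cell cannot be told apart.

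**Figure D1:**
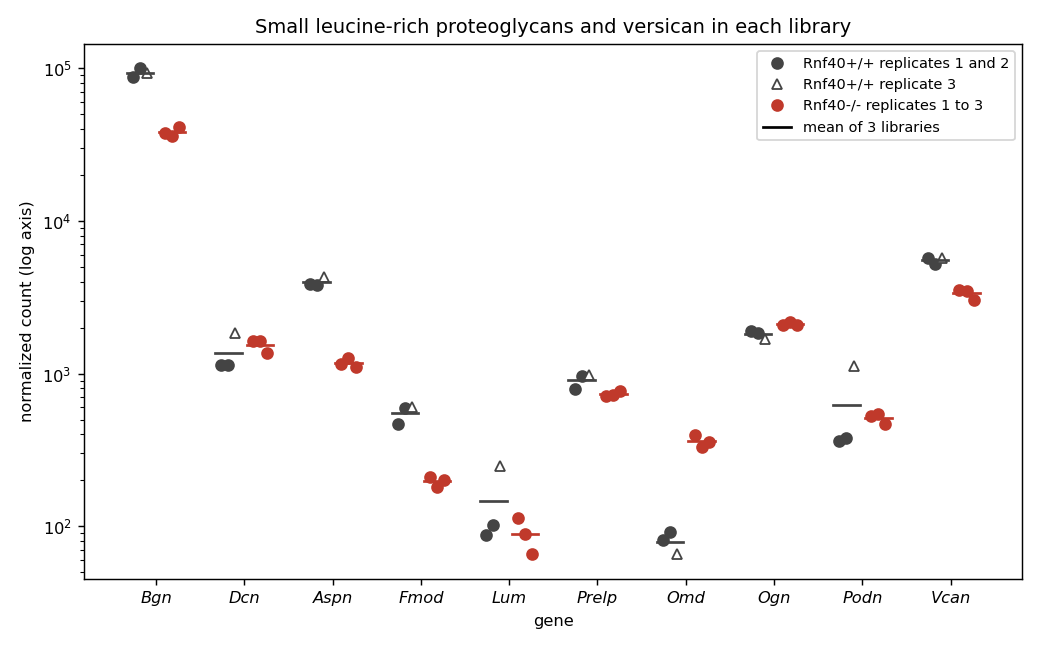
Normalized count of each of the 10 genes (log axis) in the 3 Rnf40+/+ and the 3 Rnf40-/- libraries, with 1 point per library, an open triangle for replicate 3 of Rnf40+/+ and a bar at the group mean. The libraries of the genotypes are separate for Bgn, Aspn, Fmod, Vcan, Prelp, Omd and Ogn, and for Dcn, Lum and Podn the triangle lies above every other library.

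Biglycan (Bgn), a class I SLRP with chondroitin or dermatan sulfate chains that binds collagen and can signal through Toll-like receptors when released, had the most reads of the members. Its normalized counts were 87681, 99550 and 92233 in Rnf40+/+ and 37272, 36093 and 40875 in Rnf40-/- libraries. The lowest Rnf40+/+ library thus lay above the highest Rnf40-/- library, and libraries of a genotype lay close together. The mean went from 93155 ± 5988 to 38080 ± 2491 (SD, n = 3), a fall to 40.9% with a log2 fold change of -1.29 (SE 0.09, adjusted p = 4.00e-07). Bgn lies on the X chromosome at chrX:70728941-70741272 (mm9, plus strand). Xist, the RNA that coats the inactive X chromosome, had a mean of 9234 ± 448 in Rnf40+/+ and 8399 ± 1143 in Rnf40-/- libraries (SD, n = 3) and was not called (log2 fold change -0.14, adjusted p = 0.218).

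Asporin (Aspn), a class I SLRP with a run of aspartate residues that binds collagen and TGF-beta, showed the deepest fall of the members. It was measured at 3855, 3795 and 4255 in Rnf40+/+ and at 1147, 1259 and 1101 in Rnf40-/- libraries. Each Rnf40-/- library was far below each Rnf40+/+ library. The mean went from 3968 ± 250 to 1169 ± 81.1 (SD, n = 3), a log2 fold change of -1.76 (SE 0.07, adjusted p = 1.14e-08).

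Decorin (Dcn), the class I SLRP closest to biglycan, carries a single chondroitin or dermatan sulfate chain and also limits TGF-beta signalling and receptor tyrosine kinases. Its libraries read 1140.5, 1137 and 1837 in Rnf40+/+ and 1629, 1622 and 1368 in Rnf40-/-, so that replicate 3 of Rnf40+/+ was the highest of all 6 while the other Rnf40+/+ libraries were the lowest. The log2 fold change was 0.20 (SE 0.15, 95% interval -0.14 to 0.54, adjusted p = 0.312). Without replicate 3 of Rnf40+/+ it was 0.43 (SE 0.08) and was called (adjusted p = 0.000812). The ratio of Bgn to Dcn within a library, both per kb of exon, was 41.8, 47.6 and 27.3 in Rnf40+/+ and 12.4, 12.1 and 16.2 in Rnf40-/- libraries, with no overlap between genotypes (two-sided exact permutation p = 0.1).

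Versican (Vcan) fell less than biglycan and asporin. It stood at 5698, 5243 and 5672 in Rnf40+/+ and at 3537, 3483 and 3022 in Rnf40-/- libraries, with a clear gap between genotypes. The Rnf40-/- mean of 3347 ± 283 was 60.4% of the Rnf40+/+ mean of 5538 ± 256 (SD, n = 3), and the log2 fold change was -0.73 (SE 0.07, adjusted p = 8.98e-06).

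Among the class II SLRPs, several of which are modified with keratan sulfate or with tyrosine sulfate, Fmod and Prelp fell, Omd rose and Lum was not called. Fibromodulin (Fmod), which binds collagen I and guides fibril assembly, was found at 467, 599 and 601 in Rnf40+/+ and at 209, 181 and 202 in Rnf40-/- libraries. All of its Rnf40-/- values were below the lowest Rnf40+/+ value. Its mean fell from 555 ± 76.6 to 197 ± 14.8 (SD, n = 3), with a log2 fold change of -1.48 (SE 0.12, adjusted p = 1.69e-06). Prelp, whose proline- and arginine-rich end binds heparan sulfate and links basement membranes to the underlying collagen, showed 793, 963 and 982 in Rnf40+/+ and 711, 722 and 767 in Rnf40-/- libraries. The gap was narrow, since the lowest Rnf40+/+ and the highest Rnf40-/- library differed by less than the spread within Rnf40+/+. Its log2 fold change of -0.31 (SE 0.09, adjusted p = 0.0151) was not called without replicate 2 of Rnf40+/+ (adjusted p = 0.0633), replicate 1 of Rnf40-/- (adjusted p = 0.0634) or replicate 2 of Rnf40-/- (adjusted p = 0.0535). The annotated exons of Prelp share 350 bases with Gm15851 on the opposite strand, and whether the counting used strand is not stated in the sources used here.

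Osteomodulin (Omd), a keratan sulfate SLRP known from mineralized tissue, where it binds hydroxyapatite and cells, moved the other way. Its normalized counts were only 81.2, 91.8 and 65.5 in Rnf40+/+ libraries, against 397, 333 and 355 in Rnf40-/- libraries. No library of one genotype came near those of the other. From a mean of 79.5 ± 13.2 to a mean of 362 ± 32.4 (SD, n = 3), the log2 fold change was 2.18 (SE 0.15, adjusted p = 4.67e-07). Lumican (Lum), the keratan sulfate SLRP that keeps corneal collagen in register, was low in these fibroblasts, at 87.2, 102 and 248 in Rnf40+/+ and at 113, 89.8 and 66.1 in Rnf40-/- libraries. The genotypes overlapped, and a single Rnf40+/+ library was more than double every other. The log2 fold change was -0.57 (SE 0.33, 95% interval -1.29 to 0.16, adjusted p = 0.185). It became -0.11 without replicate 3 of Rnf40+/+ (adjusted p = 0.738), and -0.85 without replicate 1 of Rnf40+/+, with which it was called (adjusted p = 0.0394).

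Osteoglycin (Ogn), also named mimecan, is a class III SLRP that takes part in collagen fibrillogenesis. Its values of 1900, 1853 and 1675 in Rnf40+/+ and 2088, 2189 and 2070 in Rnf40-/- libraries did not overlap but lay close. The log2 fold change was 0.23 (SE 0.07, adjusted p = 0.0172), and it was not called without replicate 1 (adjusted p = 0.0548) or replicate 2 (adjusted p = 0.0749) of Rnf40-/-. Podocan (Podn), a class V SLRP that binds collagen I and slows growth of smooth muscle cells, read 363, 380 and 1113 in Rnf40+/+ and 528, 542 and 471 in Rnf40-/- libraries. As for Dcn, the Rnf40-/- libraries fell between the lower pair of Rnf40+/+ libraries and the high replicate 3. The log2 fold change of -0.06 (SE 0.32, 95% interval -0.76 to 0.63, adjusted p = 0.885) turned to 0.46 (SE 0.10) and was called without that library (adjusted p = 0.0017).

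**Figure D2:**
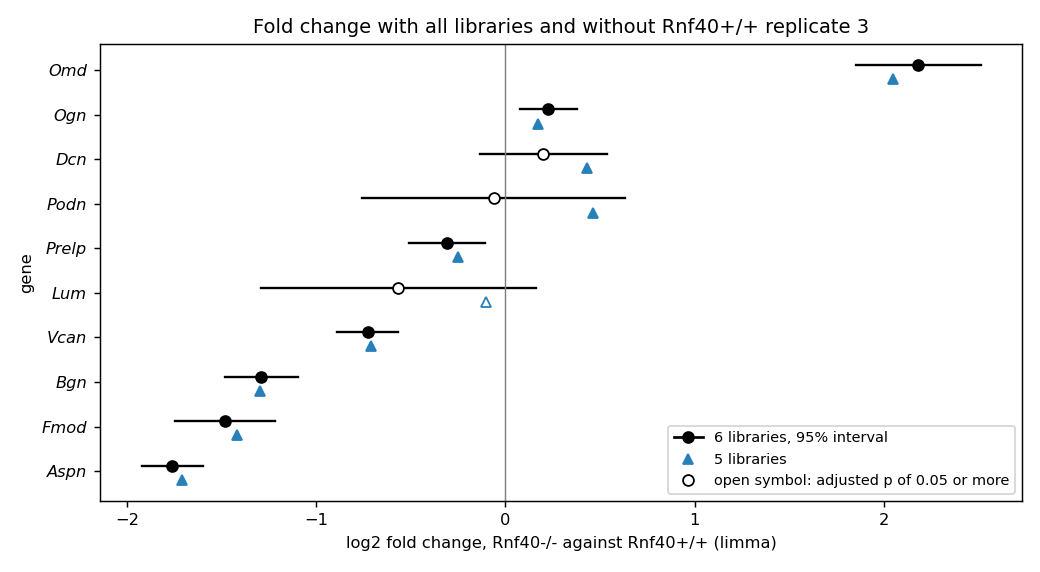
Log2 fold change of each gene in Rnf40-/- against Rnf40+/+ MEFs from limma, as circles with the 95% interval for all 6 libraries and as triangles for the 5 libraries without replicate 3 of Rnf40+/+, with open symbols for genes that were not called. The values of Bgn, Aspn, Fmod, Vcan, Prelp, Omd and Ogn keep their side of 0, while Dcn goes from 0.20 to 0.43, Lum from -0.57 to -0.11 and Podn from -0.06 to 0.46.

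The genes Dcn, Lum and Podn thus shared a library that stood apart. In log2 units, replicate 3 of Rnf40+/+ was above the mean of the other Rnf40+/+ libraries by 0.69 for Dcn, 1.38 for Lum and 1.58 for Podn. Only 74 of the 16378 genes tested (0.452%) had a larger value than Podn, 109 (0.666%) than Lum and 728 (4.44%) than Dcn. By the number of deviating genes this library was not unusual: 301 genes were more than 2-fold higher in it than in the other Rnf40+/+ libraries, against 366 and 110 genes for replicates 1 and 2. Fibulin-1 (Fbln1), a versican-binding matrix protein, deviated likewise by 1.46, with 491, 517 and 1386 in the Rnf40+/+ libraries. So did the macrophage gene C1qa, a chain of complement C1q, by 1.63. The summed level of 9 macrophage markers was 6046, 6428 and 10912 in Rnf40+/+ and 3675 to 4103 in Rnf40-/- libraries, with none of the markers at 0. Lyz2 made up most of that sum (3945, 4557 and 7440 in Rnf40+/+ libraries). Replicate 3 was the highest Rnf40+/+ library for every marker but Itgam (519, 303 and 343), though hardly so for Adgre1 (259, 259 and 279). Among the 9 markers Ptprc, the pan-leukocyte gene CD45, was higher in Rnf40-/- libraries, and 4 others including Lyz2, Tyrobp and C1qa were lower. The part of macrophage RNA in the values of Dcn, Lum and Podn was not tested. Without this library 4 members were called higher (Omd, Podn, Dcn and Ogn) and 5 lower, beside 22.8% higher, 23.3% lower and 46.2% in either direction among the 16712 genes then tested.

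To compare levels between genes, normalized counts were divided by the length of each gene's exons in kilobases. In Rnf40+/+ libraries Bgn led with 26145 ± 1681 per kb (SD, n = 3) and was followed by Aspn at 1691 ± 107. Ogn at 712 ± 46.6 and Dcn at 708 ± 208 overlapped, and Vcan came next at 383 ± 17.7 and Prelp at 252 ± 28.8. The lowest were Fmod, Podn, Lum and Omd, of which each overlapped the next, with Omd last at 51.1 ± 8.50 per kb. In Rnf40-/- libraries Bgn still led at 10688 ± 699 per kb, but Ogn at 833 ± 25.2 and Dcn at 795 ± 76.8, again overlapping, stood above Aspn at 498 ± 34.6. Omd reached 232 ± 20.8 per kb and overlapped Vcan at 231 ± 19.5, which overlapped Prelp at 203 ± 8.18. Podn, Fmod and Lum followed in that order with no overlap, and Lum was last at 43.2 ± 11.3 per kb. The lengths cover all annotated exons of a gene. For some genes the longest transcript is shorter, such as Dcn (1758 against 1937 bases) and Vcan (12429 against 14467 bases). The order and overlap of genes at similar levels can depend on this choice and were not tested with the other lengths.

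The summed level of the 10 genes fell to 45.2%, from 30328 ± 1693 to 13705 ± 551 normalized counts per kb (SD, n = 3). Most of that loss was Bgn, since without it the sum went from 4183 ± 441 to 3017 ± 150 per kb, or 72.1% of the Rnf40+/+ level. The share of Bgn in the summed level was 86.3%, 87.6% and 84.7% in Rnf40+/+ and 77.2%, 76.5% and 80.1% in Rnf40-/- libraries. The genotypes did not overlap, and the difference of the means was -8.26 percentage points (two-sided exact permutation test, p = 0.1, the smallest that 3 against 3 libraries allow). Among the other 9 genes, the share of Aspn went from 40.6% ± 1.71 to 16.5% ± 0.70, that of Ogn from 17.2% ± 2.76 to 27.6% ± 1.03, that of Dcn from 16.7% ± 3.03 to 26.3% ± 1.29 and that of Omd from 1.24% ± 0.31 to 7.71% ± 0.74 (SD, n = 3, exact permutation p = 0.1 for each). Where asporin was thus the most abundant of these transcripts per kb in Rnf40+/+ MEFs, osteoglycin and decorin took that place in Rnf40-/- MEFs. Shares of a sum are tied together, so a fall of Aspn by itself raises those of the other genes. The level of Dcn per kb went from 708 ± 208 to 795 ± 76.8 (exact permutation p = 0.4), and Dcn was not called. That of Ogn went from 712 ± 46.6 to 833 ± 25.2 per kb. In terms of sequencing, the 10 genes took 0.518% ± 0.018 of the reads in Rnf40+/+ and 0.252% ± 0.007 in Rnf40-/- libraries (SD, n = 3).

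**Figure D3:**
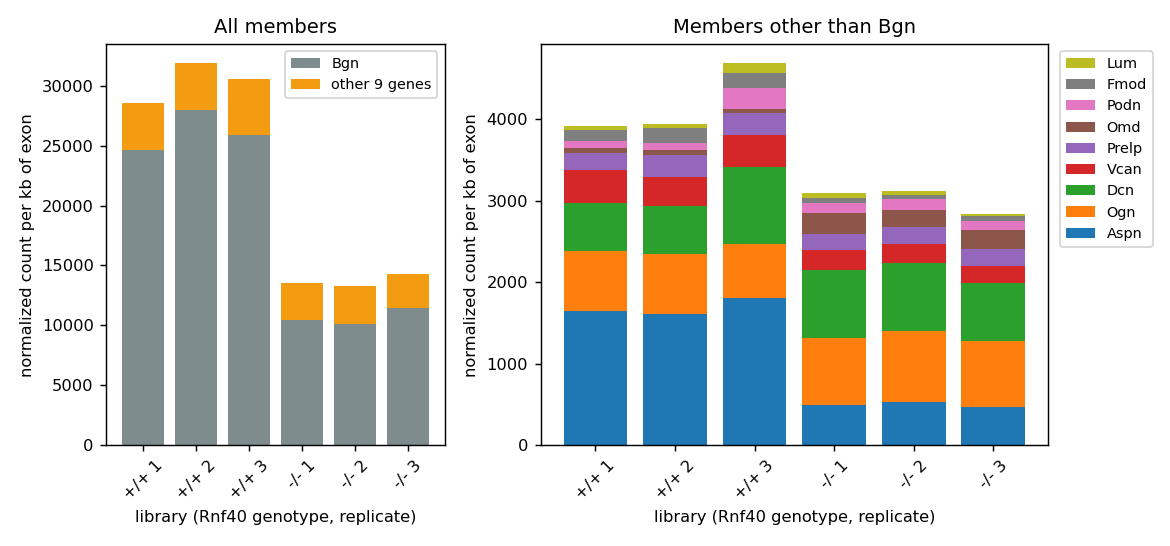
Summed normalized count per kb of exon in each of the 6 libraries, as stacked bars from 0, with Bgn and the other 9 genes in the left panel and those 9 genes each in the right panel. The bars are 13246 to 14316 high in Rnf40-/- against 28524 to 31882 in Rnf40+/+ libraries on the left, and on the right the part of Aspn shrinks while that of Omd grows.

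Several of these genes lie side by side in the genome. On chromosome 13 of mm9, Aspn (chr13:49639812-49662926), Omd (chr13:49678135-49687978) and Ogn (chr13:49703440-49719869) lie in a row on the plus strand, 15.2 kb and 15.5 kb apart. Within this row the log2 fold changes were -1.76, 2.18 and 0.23. The ratio of Aspn to Omd per kb within a library was 34.0 ± 8.13 in Rnf40+/+ and 2.16 ± 0.31 in Rnf40-/- (SD, n = 3, exact permutation p = 0.1), and no library of one genotype reached the range of the other. The next SLRP gene, Ecm2, ends 11.7 kb before Aspn and was not called (log2 fold change 0.36, SE 0.22, adjusted p = 0.195), and Nol8 on the other side of the row had 0.11 (SE 0.10, adjusted p = 0.358). The whole row lies inside the gene Cenpp, which runs on the opposite strand, encodes a centromere protein and shares no exon base with the 3 SLRP genes. Cenpp fell from 45.3 ± 9.64 to 20.6 ± 8.10 (SD, n = 3, log2 fold change -1.16, adjusted p = 0.0154), a level far below that of Aspn and Ogn. Its call was lost without replicate 2 of Rnf40+/+ (adjusted p = 0.0517) or replicate 3 of Rnf40-/- (adjusted p = 0.0575).

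The promoters of Bgn, as the member with the highest level, and of the 3 neighbours Aspn, Omd and Ogn are printed here as the 250 bases before the start site. They are the RefSeq sequences, listed for assembly GRCm38.p6, and each was found once, base for base, on its chromosome in mm9. They lie on the plus strand at chrX:70728690-70728939 for Bgn, chr13:49639562-49639811 for Aspn, chr13:49677581-49677830 for Omd and chr13:49703134-49703383 for Ogn. Capitals mark CpG dinucleotides, the sites of DNA methylation.
Bgn: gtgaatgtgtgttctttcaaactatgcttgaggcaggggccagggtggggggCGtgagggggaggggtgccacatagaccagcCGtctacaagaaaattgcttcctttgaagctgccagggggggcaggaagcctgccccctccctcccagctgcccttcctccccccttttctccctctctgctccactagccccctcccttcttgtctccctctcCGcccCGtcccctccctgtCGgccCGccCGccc
Aspn: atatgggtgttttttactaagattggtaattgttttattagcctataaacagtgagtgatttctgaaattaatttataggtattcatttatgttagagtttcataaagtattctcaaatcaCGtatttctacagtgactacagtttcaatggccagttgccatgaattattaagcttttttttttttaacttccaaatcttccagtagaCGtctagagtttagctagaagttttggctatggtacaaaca
Omd: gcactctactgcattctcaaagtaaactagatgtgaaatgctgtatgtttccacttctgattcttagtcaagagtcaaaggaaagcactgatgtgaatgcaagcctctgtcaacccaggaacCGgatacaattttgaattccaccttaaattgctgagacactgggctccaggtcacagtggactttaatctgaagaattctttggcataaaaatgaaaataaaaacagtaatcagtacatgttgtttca
Ogn: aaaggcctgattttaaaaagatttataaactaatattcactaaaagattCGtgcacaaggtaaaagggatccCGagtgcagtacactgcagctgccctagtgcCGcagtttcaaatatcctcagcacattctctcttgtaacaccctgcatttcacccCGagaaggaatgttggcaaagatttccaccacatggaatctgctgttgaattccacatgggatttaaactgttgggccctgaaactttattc
Bgn held 7 CpG dinucleotides at a GC content of 64.4%, whereas Aspn held 2 at 30.0%, Omd 1 at 38.4% and Ogn 4 at 42.0%. Over 32851 mouse promoters of this length the medians were 6 CpG dinucleotides and 52.4% GC. Of the other members with an entry, Fmod held 2 at 51.2%, Prelp 5 at 55.6% and Vcan 10 at 62.4%. The windows before the start sites of Podn held 7 at 64.0% and 32 at 78.0%. A relation of promoter composition to the direction of change was not tested. The letters TATAAA, searched on both strands and present in 12.4% of these promoters, were found in Aspn and Ogn. Counted from the 5′ end of the 250 bases, the first base was 44 in Aspn and 24 in Ogn on the printed strand and 78 and 27 on the opposite strand, where the match in Ogn overlaps that on the printed strand. Neither TGANTCA (6.75% of promoters) nor the CArG box (1.47%), also searched on both strands, was present in the windows of the 8 members that had an entry, namely Bgn, Aspn, Fmod, Prelp, Omd, Ogn, Podn and Vcan. RefSeq places the start of Omd 304 bases and that of Ogn 56 bases from the start in the gene annotation of mm9.

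On chromosome 10, Dcn (chr10:96942245-96980777) and Lum (chr10:97028135-97035337) lie 47.4 kb apart on the plus strand and were both not called. The nearest tested gene before Dcn, the antiproliferative gene Btg1 at a distance of 857 kb, fell slightly (log2 fold change -0.23, SE 0.07, adjusted p = 0.0204). That call was lost without replicate 1 or 2 of Rnf40+/+ and without replicate 1 or 3 of Rnf40-/- (adjusted p = 0.0651, 0.0709, 0.0698 and 0.0700). On the other side of Lum, Epyc, which encodes the class III SLRP epiphycan of growth plate cartilage, begins at a distance of 71.4 kb and rose. It was near the limit of detection in Rnf40+/+ libraries, at 3.58, 6.12 and 7.99 normalized counts, and reached 42.8, 37.6 and 35.9 in Rnf40-/- libraries (log2 fold change 2.58, SE 0.38, adjusted p = 0.000151). On chromosome 1, Prelp (chr1:135806881-135817991, minus strand) and Fmod (chr1:135933831-135944854, plus strand) are 116 kb apart. Opticin (Optc), an SLRP of the vitreous, ends 2.31 kb from Prelp and went from 74.3 ± 10.7 to 101 ± 2.98 (SD, n = 3, log2 fold change 0.45, SE 0.17, adjusted p = 0.0485). Its call just passed the threshold and was lost when any library but replicate 2 of Rnf40+/+ was left out (adjusted p = 0.0804 without replicate 3 of Rnf40+/+, and 0.130 at most). Btg2, an antiproliferative gene 26.9 kb beyond Fmod, rose with a log2 fold change of 0.70 (SE 0.06, adjusted p = 3.78e-06).

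Vcan lies on the minus strand at chr13:89794915-89882117, and its neighbour at a distance of 43.5 kb is Hapln1, which encodes the link protein that locks versican and other lecticans onto hyaluronan. Hapln1 rose from a low level while Vcan fell, from 3.58, 9.18 and 3.19 in Rnf40+/+ to 22.4, 33.4 and 26.4 in Rnf40-/- libraries (log2 fold change 2.27, SE 0.45, adjusted p = 0.00136). Xrcc4, a DNA repair gene on the other side, had a log2 fold change of -0.32 and was not called (adjusted p = 0.0761), except without replicate 1 of Rnf40+/+ (-0.41, adjusted p = 0.0406). Podn at chr4:107687396-107704942 on the minus strand has Slc1a7 and Scp2 next to it, with log2 fold changes of 0.63 (adjusted p = 0.0975) and -0.0052 (adjusted p = 0.960). The neighbours of Bgn, Haus7 and Dusp9, were also not called, at 0.14 (adjusted p = 0.238) and -0.15 (adjusted p = 0.540).

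**Figure D4:**
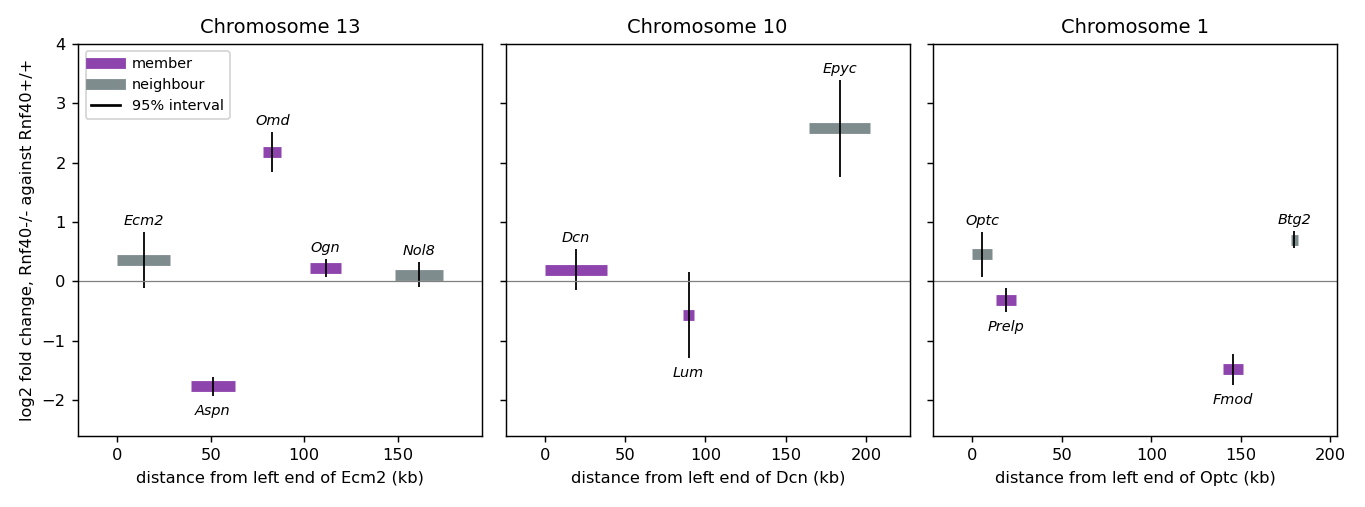
Log2 fold change in Rnf40-/- against Rnf40+/+ MEFs of the proteoglycan genes (purple) and their neighbours (grey) in 3 stretches of the genome, plotted against the distance in kb from the left end of the first gene, with the width of a bar showing the length of the gene and vertical lines the 95% interval from limma. On chromosome 13 Aspn (-1.76) and Omd (2.18) lie on opposite sides of 0, on chromosome 10 Epyc (2.58) lies far above Dcn and Lum, and on chromosome 1 Prelp and Fmod lie below 0 between Optc and Btg2 above it.

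Of the 9 remaining genes of the SLRP family, 6 were tested, of which 3 were higher and 2 lower. Beside this list and those that follow stand 23.3% higher and 24.1% lower among all genes tested. Besides Epyc and Optc, Tsku, a secreted SLRP that acts on BMP and Wnt signalling, rose from 1503 ± 88.4 to 2121 ± 76.4 (SD, n = 3, log2 fold change 0.50, adjusted p = 0.000102). Chadl, a chondroadherin-like repressor of cartilage differentiation, fell with a log2 fold change of -0.85 (adjusted p = 0.0198), and Podnl1, the paralog of podocan, with -0.56 (adjusted p = 0.0154). The count of lower genes was 1 without replicate 3 of Rnf40+/+, where Chadl was not called (adjusted p = 0.0967), and 0 without replicate 2 of Rnf40-/- (adjusted p = 0.0597 for Chadl and 0.0652 for Podnl1). The count of higher genes was 2 with any library but replicate 2 of Rnf40+/+ left out, since Optc then lost its call. Kera, Chad and Nyx had too few reads to be tested. The 6 genes had a median log2 fold change of 0.41, against -0.44 for the members.

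The genes around versican and hyaluronan moved in both directions, with 4 of 18 tested genes higher, 6 lower and a median log2 fold change of -0.28. The hyaluronan synthases Has1 and Has2 fell, by 1.16 (adjusted p = 0.0271) and 0.83 (adjusted p = 0.00228) on the log2 scale, while Has3 was low and not called. Has1 was uneven in Rnf40+/+ libraries, at 191, 69.3 and 51.9, against 32.6, 47.0 and 38.7 in Rnf40-/- libraries. It was not called without replicate 1 of Rnf40+/+ (-0.61, adjusted p = 0.0797) or replicate 1 or 3 of Rnf40-/- (adjusted p = 0.0860 and 0.0718). Cemip, listed under an older symbol, takes part in hyaluronan breakdown and fell from 2340 ± 155 to 1208 ± 39.3 (SD, n = 3, log2 fold change -0.95, adjusted p = 7.44e-07). Hmmr, a hyaluronan receptor that also acts at the mitotic spindle, fell as well (-1.24, adjusted p = 3.14e-06), as did the hyaluronan receptor Cd44 (-0.46, adjusted p = 0.000476). Habp4, an RNA-binding protein found by its affinity for hyaluronan, rose (0.42, adjusted p = 0.00104). Higher genes numbered 2 without replicate 1 of Rnf40+/+ or without replicate 3 of Rnf40-/-. Of 4 tested proteins that bind versican in the matrix, tenascin-C (Tnc), fibulin-2 (Fbln2) and fibrillin-1 (Fbn1) fell, with log2 fold changes of -0.82, -0.66 and -0.52, and Fbln1 was not called (-0.72, adjusted p = 0.0619). Over the fits with a library left out, 3 to 4 genes of this group were lower. In 4 of those fits, without any one Rnf40+/+ library or without replicate 1 of Rnf40-/-, a gene of this group was higher, when 5 could be tested. Without replicate 3 of Rnf40+/+ it was Tnr, which read 0, 5.10 and 0 in all Rnf40+/+ and 9.18, 11.5 and 10.4 in Rnf40-/- libraries.

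The enzymes that build the sulfated chains were mixed too. For the linker and the chondroitin and dermatan sulfate chains, 4 of 23 genes were higher and 8 lower, with a median log2 fold change of -0.20. The sulfotransferase Chst14, which modifies dermatan sulfate, read 1470, 1464 and 1409 in Rnf40+/+ and 741, 778 and 769 in Rnf40-/- libraries. Chst12, which adds sulfate to chondroitin, fell to a like extent (log2 fold change -0.96, SE 0.08, adjusted p = 1.75e-06) as Chst14 (-0.92, SE 0.07, adjusted p = 6.68e-07). Chst13, another chondroitin sulfotransferase at a low level, was at the threshold (-0.81, adjusted p = 0.0491) and was not called with any library left out (adjusted p = 0.0758 to 0.124). Higher were Chst7, a chondroitin 6-O-sulfotransferase (0.59, adjusted p = 0.000994), Csgalnact2, which starts chondroitin chains (0.42, adjusted p = 0.00458), and Chst15, which adds a further sulfate (0.34, adjusted p = 0.017). Chst15 was not called without replicate 1 of Rnf40+/+ (adjusted p = 0.0516) or replicate 1 or 2 of Rnf40-/- (adjusted p = 0.0570 and 0.0501). Without replicate 1 of Rnf40-/- 2 genes of this group were higher. Of 4 tested genes for keratan sulfate, the sulfotransferases Chst1 (-1.17, adjusted p = 5.44e-05) and Chst2 (-1.09, adjusted p = 1.70e-06) fell and the galactosyltransferase B4galt4 rose (0.33, adjusted p = 0.0127). Without replicate 1 of Rnf40+/+ 2 of these 4 genes were higher.

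Of 10 genes that make or transport sugar and sulfate donors, 5 were higher, 1 was lower and 4 were not called, with a median log2 fold change of 0.23, beside 23.3% higher and 24.1% lower among all genes tested. The higher genes numbered 4 without replicate 1 or 3 of Rnf40+/+ and without replicate 1 or 2 of Rnf40-/-. Ugdh, the enzyme that makes the UDP-glucuronic acid used for hyaluronan and chondroitin, went from 3757, 4115 and 3427 in Rnf40+/+ to 7552, 7947 and 8210 in Rnf40-/- libraries. No Rnf40+/+ library came near, and this rise (log2 fold change 1.07, SE 0.07, adjusted p = 4.79e-07) was the largest of the group. The nucleotide sugar transporter Slc35d1 (0.63, adjusted p = 0.000869) and the sulfate transporter Slc26a2 (0.59, adjusted p = 0.00476) rose as well, while Slc35b2, which brings activated sulfate into the Golgi, fell (-0.29, adjusted p = 0.00266).

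Proteases that cut versican or SLRPs were split, with 4 of 12 tested genes higher, 4 lower and a median log2 fold change of 0.055. Adamts1, which cleaves versican, rose from 6454, 6969 and 6238 to 12318, 12586 and 11783 normalized counts (log2 fold change 0.90, SE 0.07, adjusted p = 6.88e-07). Mmp14, the membrane-bound collagenase, fell from 11412, 10224 and 11609 to 4422, 4385 and 4490 (-1.32, SE 0.07, adjusted p = 4.66e-08). The libraries of both genes were tight within a genotype. Adamts8 (2.87, adjusted p = 0.00155) rose from near the limit of detection, at 5.97, 7.14 and 0.80 in Rnf40+/+ libraries. Its log2 fold change was 2.18 without replicate 3 of Rnf40+/+. Mmp13 (1.47, adjusted p = 0.0024) rose from uneven values of 59.7, 67.3 and 169 in Rnf40+/+ libraries. The tolloid-like protease Tll1 (-1.02, adjusted p = 6.49e-07) and the aggrecanase Adamts4 (-0.59, adjusted p = 0.00198) fell.

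The collagens that SLRPs bind moved nearly all one way, with 9 of 11 genes lower and none higher. Their median log2 fold change was -0.80, and among all genes tested 24.1% were lower and 23.3% higher. Without replicate 3 of Rnf40+/+, 8 collagens were lower, since Col5a2 was not called (adjusted p = 0.0501). With any library left out the count was 8 or 9. Col6a3 and Col6a2, chains of the collagen VI network that binds biglycan and decorin, had log2 fold changes of -2.94 (adjusted p = 6.56e-08) and -2.26 (adjusted p = 7.15e-08). Col1a2, a chain of the main fibrillar collagen, was at 107178, 113121 and 128919 in Rnf40+/+ and at 24175, 23758 and 24565 in Rnf40-/- libraries (-2.26, adjusted p = 7.63e-09). Col12a1 and Col14a1, which sit on fibril surfaces, were not called. Among receptors reported for SLRPs and versican, 5 of 11 were higher and 1 lower, with a median log2 fold change of 0.13. The epidermal growth factor receptor Egfr (0.94, adjusted p = 1.03e-06), the ATP-gated channel P2rx7 (0.74, adjusted p = 0.0212) and the Toll-like receptor Tlr4 (0.71, adjusted p = 0.000743) rose, and the endocytic receptor Lrp1 fell (-0.61, adjusted p = 2.71e-05). P2rx7 was not called without replicate 2 of Rnf40-/- (adjusted p = 0.0937), and 2 receptors were lower without replicate 1 of Rnf40+/+.

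**Figure D5:**
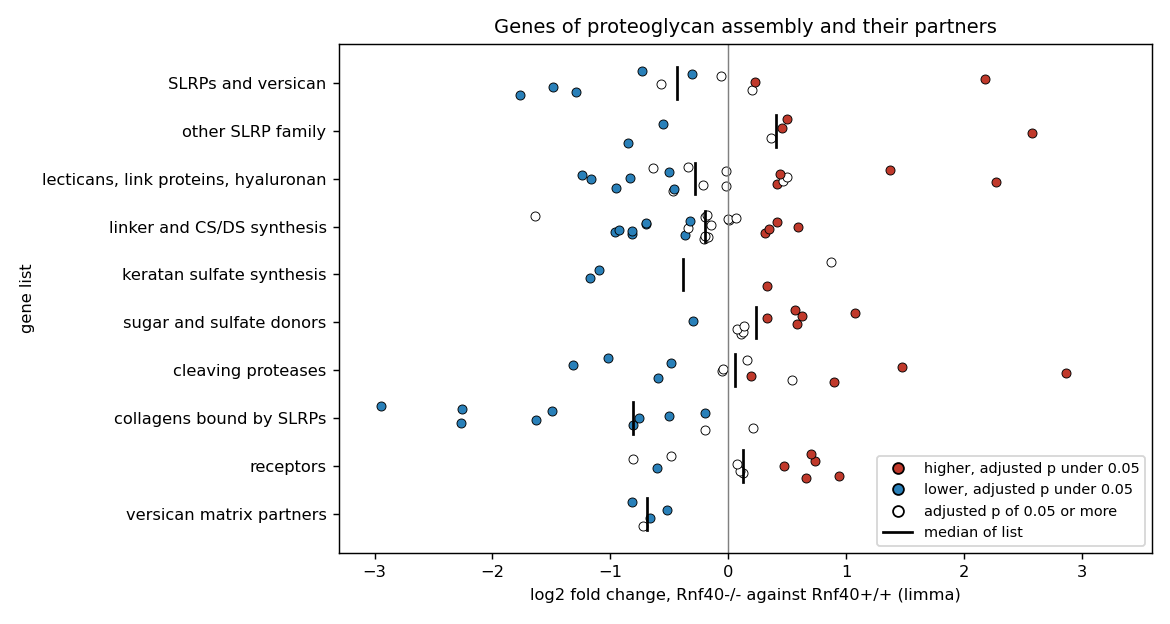
Log2 fold change in Rnf40-/- against Rnf40+/+ MEFs of each tested gene in the member list and the 9 pathway lists, with filled points for genes called at an adjusted p under 0.05 and a bar at the list median. The collagen list lies almost wholly below 0 with a median of -0.80, while the other lists hold genes on both sides or, for versican partners, only below 0.

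Some markers of cell types and of proliferation moved with genotype as well. Of 9 fibroblast markers, of which Col1a1, Col1a2 and Col3a1 are also among the collagens above, all 9 were lower in Rnf40-/- libraries, and their summed level was 689195 to 756272 in Rnf40+/+ and 412850 to 416093 in Rnf40-/-, with none at 0. The summed level of 8 proliferation genes went from 3888 to 4831 in Rnf40+/+ down to 687 to 797 in Rnf40-/-, and all 8 were lower. Top2a, the topoisomerase of dividing cells, had a log2 fold change of -3.20 (adjusted p = 2.33e-08). Endothelial markers summed to only 139 to 279 and 225 to 315, which overlap, with Cldn5 under 3 reads in every library. The largest part of each Rnf40+/+ sum was Emcn (136, 158 and 84.6). Tek, which was not called, was uneven in these libraries (115, 11.2 and 16.0). Kdr was higher, as were Pecam1 and Cdh5, both near the limit of detection in Rnf40+/+ libraries. Emcn was lower (from 126 ± 37.7 to 55.3 ± 11.9, SD, n = 3, adjusted p = 0.0023). Epithelial markers summed to 26.5 to 97.9 and 30.2 to 53.0, and neither of the 2 that were tested was called. The part of these shifts in the changes of the proteoglycan genes was not tested.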

How the data were processed

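RNA-seq of MEFs (3 Rnf40+/+ and 3 Rnf40-/- libraries) was analysed from the deposited table of 29955 genes. The authors aligned the reads to mouse transcripts of build mm9 and scaled them with DESeq: each deposited value is a signal equal to reads over the library's size factor. The submitters' processing notes list Bowtie2 (2.1.0) and DESeq (1.14.0). The counting tool, and whether it used strand, are not given in the sources used here, although the library kit was directional. In every library 100% of the positive values, divided by the smallest, were whole within a tolerance of 0.01, which gave back the reads.

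The design allowed for counts or normalized values. As the values were normalized, limma (3.58.1; lmFit and eBayes with trend) was used on log2(normalized count + 1), two-sided, with genotype as the only term, all 6 libraries and Benjamini-Hochberg adjustment over the 16378 genes kept by filterByExpr on the recovered reads. SDs are over 3 libraries and SEs are those of limma. Levels per kb used the union of annotated exons (GENCODE for mm9). A single ratio or share was compared by a two-sided exact permutation test over libraries (scipy 1.17.1).

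Alternatives were the quasi-likelihood test of edgeR (4.0.16) and the Wald test of DESeq2 (1.42.0) on recovered reads, TMM, DESeq2 and upper-quartile scaling, other filters, pseudocounts of 0.1 and 10, a replicate block and each library left out. The tests were tried on simulated data of 16178 genes, of which 197 were changed. At the same threshold limma recovered 171 of them with 17 false calls, edgeR 172 with 18 and DESeq2 167 with 21. Named genes are all members, every tested gene of the remaining SLRP family, nearest tested neighbours and, per list, up to 3 with the largest rise and 3 with the largest fall among called genes with a mean over 15 and no overlap of genotypes. Has2, Has3, Cd44, Col5a2, Col12a1, Col14a1, Fbln1, Tnr, C1qa, Itgam, Adgre1, Tek, Sp7, Scx, Mkx and Xist were named after their values were seen. Members and lists were chosen with earlier results of these data known. Promoters came from RefSeq, which had an entry for 8 of 10 members, all but Dcn and Lum.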

Additional observations from a re-analysis of the deposited data

How the results depend on the processing

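Over 10 settings other than leaving out a library, all 100 log2 fold changes of members kept their direction and their side of the threshold. With a library left out, 52 of 60 did. Among the 10 settings, DESeq2 scaling repeated the main fit, since the deposited values were already scaled in that way. The other gene filters and the replicate block alter the SE and p-value of a member but not its log2 fold change. In these settings the direction could therefore not change. Podn turned from -0.06 to 0.46 without replicate 3 of Rnf40+/+. The ranges over left-out libraries were 0.085 to 0.43 for Dcn, -0.85 to -0.11 for Lum, -0.41 to -0.25 for Prelp, 0.17 to 0.26 for Ogn and -0.34 to 0.46 for Podn, and from 1 to 4 members were called higher and from 4 to 6 lower. The cause was not tested. The remaining members kept their direction and their call, with Bgn at -1.34 to -1.24, Aspn at -1.82 to -1.71, Fmod at -1.60 to -1.42, Vcan at -0.77 to -0.66 and Omd at 2.05 to 2.29. The difference in the share of Bgn ran from -9.36 to -7.53 percentage points, for which the permutation test can reach no p under 0.1. Counts within single lists moved by more than 1.5 times in 11 of 108 fits with a library left out and in 4 of 180 others. Upper-quartile scaling moved the median log2 fold change of all genes from -0.0035 to 0.044. With the replicate number as a block, 2 members were higher and 5 lower, as without it, and 2 receptors were lower in place of 1. Deviations of same-numbered libraries from their group means correlated at 0.0118, 0.0174 and 0.0212, so the numbers were not taken to pair the cultures.

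With 3 libraries a genotype, small changes such as those of Prelp and Ogn lie near the threshold, and Lum and Omd, with libraries of as few as 70 and 68 reads, rest on fewer reads than the other members.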

Other observations

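Several of these proteoglycans are known from skeletal tissue, and some markers of its cells were expressed in these MEFs. Of 7 chondrocyte markers 3 were tested and all 3 were lower in Rnf40-/- MEFs, namely Col2a1 (log2 fold change -1.63, adjusted p = 1.23e-06), Sox9 (-0.85, adjusted p = 0.000156) and Col11a2 (-0.75, adjusted p = 0.00315). The summed level of the 7 genes was 1339 to 1772 normalized counts in Rnf40+/+ and 559 to 647 in Rnf40-/- libraries. The cartilage genes Epyc and Hapln1 rose, both from near the limit of detection in Rnf40+/+ libraries. Of 6 osteoblast markers 2 were tested, and both were lower, the transcription factors Runx2 (-0.29, adjusted p = 0.0114) and Sp7 (-2.61, adjusted p = 0.00608, from a mean of only 15.5 ± 2.14 to 2.30 ± 2.09 normalized counts, SD, n = 3), while Omd, the SLRP of mineralized tissue, rose. Of 5 tendon markers 3 were tested, and Tnmd, a membrane protein of tendon cells, was lower (-0.74, adjusted p = 3.87e-05). The transcription factors Scx (0.29, adjusted p = 0.0542, genotypes not overlapping with Rnf40-/- higher) and Mkx (0.25, adjusted p = 0.238) were not called, and the median of the 3 was 0.25. The sums were 709.9 to 785 against 585 to 617 for osteoblast markers and 854 to 962 against 788 to 798 for tendon markers. Most of the osteoblast sum was Runx2, and most of the chondrocyte sum was Col2a1. Means were under 15 for 5 of the 6 osteoblast, 4 of the 7 chondrocyte and 2 of the 5 tendon markers. The part of skeletal cells in the changes of the proteoglycan genes was not tested.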
